A study of Homo sapiens with 15 samples.

Results

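The integrated stress response was followed through 10 genes, ATF4 and 9 genes known as its targets or as factors of the same pathway, which were picked by gene symbol among the 60107 genes listed for each library. Of these 10 genes, 9 were among the 10495 genes with enough reads to be tested, and ATF3 was not. In this response, kinases that sense amino acid shortage, misfolded protein, double-stranded RNA or haem shortage phosphorylate the translation factor eIF2. Most protein synthesis then slows, while the mRNA of the transcription factor ATF4 is translated more efficiently. ATF4 drives genes of amino acid supply and glutathione turnover, and also genes that damp the response or, when stress persists, favour cell death. Because ATF4 is regulated largely at translation, its mRNA level is an incomplete measure of its activity.

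The cells were MIA PaCa-2, a human pancreatic carcinoma line, in 5 groups of 3 libraries. They received vehicle (labelled Ctrl), Lys05, BAQ12, BAQ13 or BAQ12O for 24 h, each compound at 5 µM. Lys05 is an autophagy inhibitor with a bisaminoquinoline core, and BAQ12 and BAQ13 are derivatives of it that carry a long hydrophobic tail and assemble into nanoparticles (NPs). BAQ12O is taken here as the agent that the series text calls 12O, and it is known only by that code name. RNA was sequenced, and values are normalised read counts, that is, reads on a gene scaled by the size factor of each library. The libraries held between 1586566 and 2500551 reads on genes. Nothing in the labels says whether the 3 libraries of a group came from separate cultures, so the p-values measure the spread between these libraries, which may be technical.

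The labels call the cells epithelial. VIM was at 9198 to 10781 normalised counts and KRT18 at 634 to 969.7, whereas the epithelial genes EPCAM and CDH1 were absent or nearly so, with EPCAM at 0 in 14 of the 15 libraries and CDH1 at 5 reads or fewer. Of 10 markers of lymphoid, myeloid, fibroblast and endothelial cells, 4 (CD3E, MS4A1, DCN and PECAM1) were at 0 in every library. The summed level of these 10 markers, nearly all of it COL1A2, was 216 to 256 normalised counts with vehicle, 188 to 199 with Lys05, 157 to 159 with BAQ12, 153 to 174 with BAQ13 and 184 to 232 with BAQ12O. The keratin KRT8 fell with BAQ12 (log2 fold change -0.58), BAQ13 (-0.85) and BAQ12O (-0.60), KRT18 fell with BAQ13 (-0.50) and BAQ12O (-0.43), and COL1A2 fell with BAQ12 (-0.56) and BAQ13 (-0.54). The part of these differences in the results was not tested, and in bulk RNA fewer cells of a kind and less RNA per cell cannot be told apart. Replicate 3 of BAQ12 stood apart, with a median absolute log2 difference of 0.395 from the other 2 libraries of its group, against 0.143 to 0.262 for the remaining 14 libraries. The spread is estimated jointly, so this library enters every p-value, and results are also given without it.

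Motifs of the factors of this pathway were looked for in promoter windows of RefSeq (GRCh38.p14), which run from 250 bases before to 50 bases after each annotated start. All 10 genes had an entry, and the 5 matches are shown because these genes turn up in the results that follow. Each stretch is printed 5′ to 3′ along its gene, and capitals mark the motif. The C/EBP-ATF response element, the composite site that ATF4 binds with a C/EBP partner, was searched as TGATGNAA on both strands, and ASNS, CHAC1 and ATF3 held it.
ASNS, chr7:97872458-97872487, minus strand: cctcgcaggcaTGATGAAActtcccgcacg
CHAC1, chr15:40953251-40953280, plus strand, motif on the opposite strand: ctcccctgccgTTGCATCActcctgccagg
ATF3, chr1:212565205-212565234, plus strand: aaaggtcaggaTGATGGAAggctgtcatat
The cyclic AMP response element, bound by CREB and ATF family dimers, was searched as TGACGTCA and was found in PPP1R15A.
PPP1R15A, chr19:48872352-48872381, plus strand: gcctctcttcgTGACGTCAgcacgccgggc
The AP-1 element, bound by FOS, JUN and ATF proteins, was searched as TGACTCA on both strands and was found in DDIT3.
DDIT3, chr12:57520738-57520766, minus strand: gcgcgcgcgcaTGACTCAcccacctcctc
Counted by gene, as the matches are, 4.46% of 27305 genes had a window with TGATGNAA, 2.25% with TGACGTCA and 6.05% with TGACTCA. Among the 35116 promoter windows of all genes, 3.62% held TGATGNAA, 1.85% held TGACGTCA and 4.95% held TGACTCA. The motifs do not overlap in these windows. A match describes the letters only, and the other genes can hold such elements outside the windows or with other letters.

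Among the transcription factors, DDIT3 rose with BAQ13, and its mean was above that of vehicle with each compound. DDIT3 (CHOP; ENSG00000175197; chromosome 12, 57516588 to 57521737 in GRCh38) encodes a C/EBP family factor linked to cell death under prolonged stress, and its promoter window is the one with the AP-1 letters above. Its normalised counts were 34.9, 34.6 and 37.6 with vehicle, 47.9, 45.8 and 49.5 with Lys05, and 45.9, 45.1 and 74.1 with BAQ12. With BAQ13 they were 104.5, 60.2 and 65.4, and with BAQ12O 60.4, 57.2 and 71.7. Every treated library of every compound lay above all 3 vehicle libraries, a separation that 15.6% of all genes tested showed in either direction with Lys05, 15.4% with BAQ12, 28.9% with BAQ13 and 25.8% with BAQ12O. With BAQ13 the log2 fold change was 1.04 and its standard error 0.21, which passed the limma test (adjusted p = 0.0053). The values with BAQ12O (0.80, adjusted p = 0.072), BAQ12 (0.57, adjusted p = 0.29) and Lys05 (0.41, adjusted p = 0.999) did not pass. DDIT3 passed with BAQ13 in all 15 fits that each left out a library, and leaving out replicate 3 of BAQ12 brought BAQ12O past the threshold as well (adjusted p = 0.0051) and took the BAQ12 log2 fold change to 0.34. The gene shares its locus with MARS and MBD6, which held 2548 and 344 reads over all libraries, and the strand setting of the counting is not given, so its reads cannot be fully separated from theirs. MARS had a log2 fold change of -0.24 with BAQ13 (adjusted p = 0.29).

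ATF4 itself (ENSG00000128272; chromosome 22, 39519695 to 39522685) differed less. Its normalised counts were 1133, 1239 and 1135 with vehicle, 1057, 1073 and 1186 with Lys05, and 1040, 1192 and 1245 with BAQ12O. They were 1651, 1397 and 1299 with BAQ13 and 1092, 1162 and 1743 with BAQ12. All BAQ13 libraries were above the vehicle range, while the BAQ12 group overlapped it, with replicate 3 the highest of all 15 libraries. With BAQ13, 28.9% of all genes tested were apart from vehicle in either direction. The log2 fold change with BAQ13 was 0.30 (95% interval 0.01 to 0.59, adjusted p = 0.23 by limma), and without replicate 3 of BAQ12 the adjusted p was 0.0095 for the same fold change. The intervals with Lys05 (-0.37 to 0.21) and BAQ12O (-0.30 to 0.27) lay on both sides of 0. The 12 listed pseudogenes of ATF4, PSAT1 and ASNS held 1 read in all. Whether reads matching both a gene and its copy were dropped was not tested.

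ATF3 (ENSG00000162772; chromosome 1, 212565334 to 212620777), a stress-induced factor that ATF4 and AP-1 are both known to activate, was too weakly expressed to test. Its libraries held 1 to 12 reads, and 6 of the 15 were at or under 3 reads. The normalised counts were 3.32, 2.23 and 2.75 with vehicle, 5.32, 4.17 and 0.93 with Lys05, 2.75, 4.25 and 7.54 with BAQ12, 5.60, 3.65 and 9.22 with BAQ13, and 2.16, 11.4 and 4.14 with BAQ12O. The groups overlapped except that the BAQ13 libraries were above all vehicle libraries. With BAQ13, 28.9% of all genes tested were apart from vehicle in either direction. The highest vehicle library and the lowest BAQ13 library both held 4 reads, so only the scaling set them apart. A difference was not detectable at this depth.

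**Figure D1:**
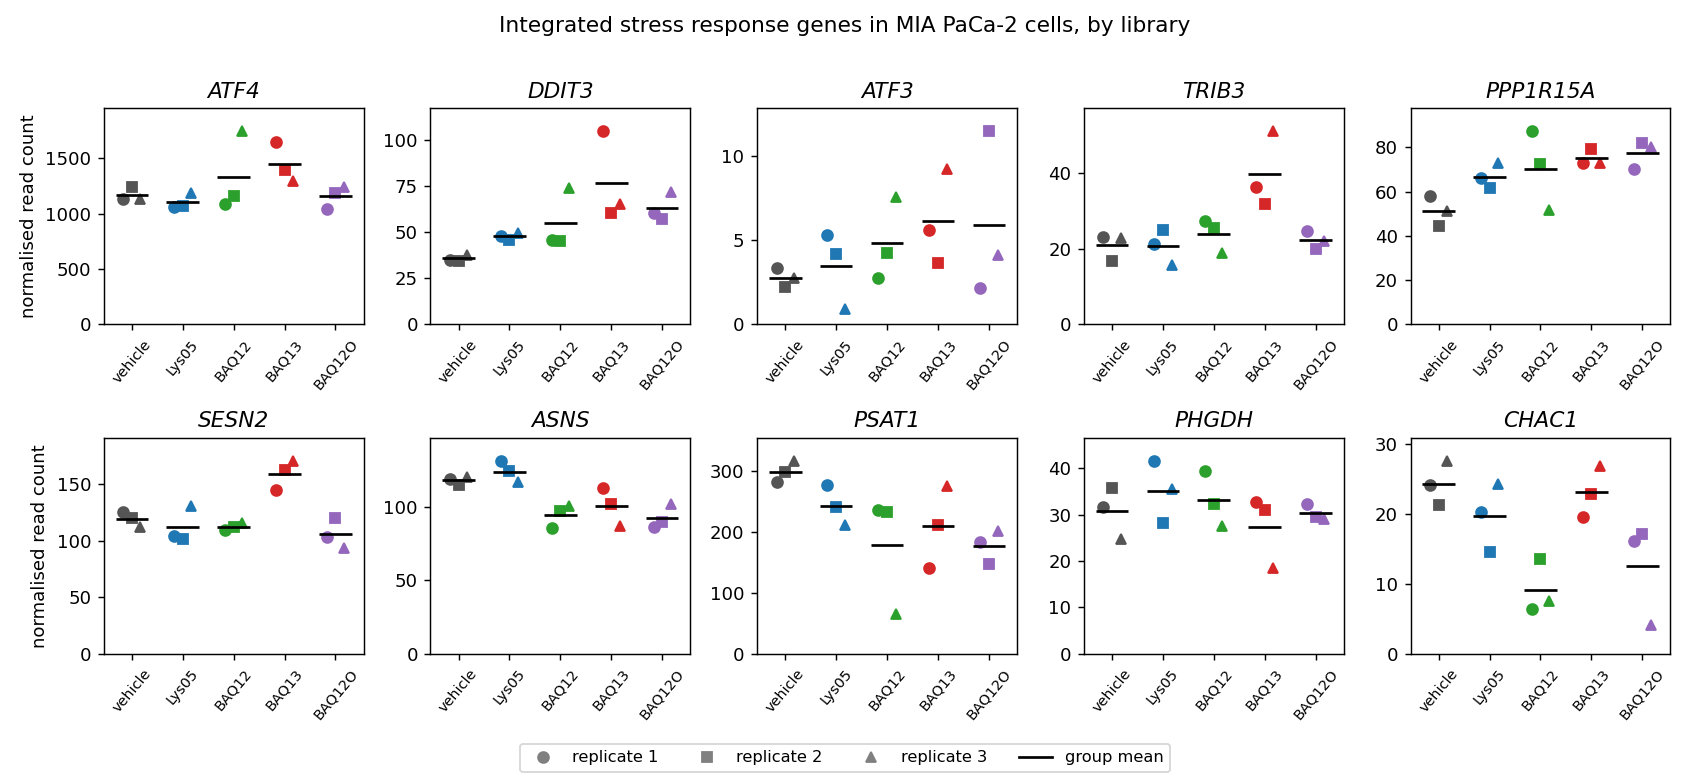
Normalised read counts of the 10 genes in each of the 15 libraries (y axis, linear from 0, with its own scale for each gene), by treatment (x axis). Symbols mark replicate numbers and bars the means of 3 libraries. DDIT3 is above the vehicle range in all 12 treated libraries, TRIB3 and SESN2 stand out with BAQ13, and CHAC1 is lowest with BAQ12 and BAQ12O.

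The plot of counts by library shows the range of each gene on its own scale, since counts were not compared between genes. Of 3 genes that restrain the response or growth, TRIB3 rose with BAQ13, and SESN2 and PPP1R15A did not pass against vehicle. TRIB3 (ENSG00000101255; chromosome 20, 362835 to 397559), a pseudokinase that is induced by ATF4 and DDIT3 and holds back their activity, was at 23.2, 16.7 and 22.9 normalised counts with vehicle and at 36.4, 31.9 and 51.1 with BAQ13. With Lys05 it was at 21.3, 25.0 and 15.9, with BAQ12 at 27.5, 25.5 and 18.8, and with BAQ12O at 24.8, 20.0 and 22.1. The BAQ13 libraries were above those of every other group, while the others overlapped vehicle. With BAQ13, 28.9% of all genes tested were apart from vehicle in either direction. The share was 23.8% against Lys05, 10.8% against BAQ12 and 18.7% against BAQ12O. The log2 fold change of TRIB3 with BAQ13 was 0.88, with a standard error of 0.24 and an adjusted p of 0.035 by limma. This call did not survive 5 of the 15 omissions of a single library, those without any 1 of the vehicle libraries or without replicate 1 or 3 of BAQ13 (adjusted p 0.060 to 0.16).

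SESN2 (ENSG00000130766; chromosome 1, 28259527 to 28282491) encodes sestrin 2, a leucine sensor that restrains the growth kinase mTORC1. Its normalised counts were 125.4, 119.5 and 112.0 with vehicle, 104.3, 101.0 and 130.7 with Lys05, and 109.1, 112.2 and 115.6 with BAQ12. They were 144.6, 162.2 and 170.1 with BAQ13 and 103.5, 120.1 and 93.7 with BAQ12O. The BAQ13 libraries were again above all other libraries, and the other 4 groups overlapped. Groups that do not overlap, in either direction, were seen for 23.8% of all genes tested between BAQ13 and Lys05, 10.8% between BAQ13 and BAQ12 and 18.7% between BAQ12O and BAQ13. Between BAQ13 and vehicle the share was 28.9%. Against vehicle, BAQ13 gave 0.41 on the log2 scale with a standard error of 0.12, short of the limma threshold (adjusted p = 0.061), and the adjusted p was 0.019 without replicate 3 of BAQ12.

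PPP1R15A (GADD34; ENSG00000087074; chromosome 19, 48872392 to 48876057), whose product directs a phosphatase to eIF2 and so ends the response, had higher means than vehicle with all 4 compounds and no call. It was at 58.1, 44.7 and 51.4 normalised counts with vehicle, 66.0, 61.4 and 72.8 with Lys05, and 87.1, 72.3 and 51.5 with BAQ12. The BAQ13 libraries were at 72.8, 79.3 and 72.9 and the BAQ12O libraries at 70.1, 82.0 and 80.0. All libraries of Lys05, BAQ13 and BAQ12O were above the vehicle range, and in the BAQ12 group replicate 3 fell within it. Of all genes tested, 15.6% were apart from vehicle in either direction with Lys05, 28.9% with BAQ13 and 25.8% with BAQ12O. The log2 fold changes were 0.38 with Lys05, 0.42 with BAQ12, 0.54 with BAQ13 and 0.59 with BAQ12O, with adjusted p-values of 0.95, 0.35, 0.070 and 0.11 by limma, so that none passed. Without replicate 3 of BAQ12 the adjusted p was 0.037 with BAQ12, 0.0086 with BAQ13 and 0.012 with BAQ12O. Without replicate 1 of BAQ12, the log2 fold change with BAQ12 was 0.25.

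In the limma fit of all 15 libraries none of the 3 amino acid synthesis genes passed against vehicle in either direction. The means of ASNS and PSAT1 with the 3 BAQ compounds were below that of vehicle. ASNS (asparagine synthetase; ENSG00000070669; chromosome 7, 97852118 to 97872542), whose promoter window carries the C/EBP-ATF letters shown above, was at 118.7, 115.0 and 120.3 normalised counts with vehicle and at 131.0, 123.9 and 116.7 with Lys05. It was at 85.3, 96.9 and 100.5 with BAQ12, 112.9, 102.1 and 87.2 with BAQ13, and 86.2, 89.6 and 102.0 with BAQ12O. All 9 libraries of the 3 BAQ groups were below the vehicle range. Groups apart from vehicle in either direction were seen for 15.4% of all genes tested with BAQ12, 28.9% with BAQ13 and 25.8% with BAQ12O. The log2 fold changes were -0.32 with BAQ12 (adjusted p = 0.31), -0.23 with BAQ13 (adjusted p = 0.31) and -0.35 with BAQ12O (adjusted p = 0.20 by limma), none of which passed. Without replicate 3 of BAQ13, the BAQ13 value was -0.13.

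PSAT1 (ENSG00000135069; chromosome 9, 78297143 to 78330093), the aminotransferase of the serine synthesis pathway, was at 281.4, 298.1 and 315.8 normalised counts with vehicle. With Lys05 it was at 276.8, 240.6 and 211.0, with BAQ12 at 235.7, 232.1 and 65.3, with BAQ13 at 140.0, 211.4 and 274.9, and with BAQ12O at 183.3, 147.8 and 201.3. Every treated library lay below every vehicle library, but the spread within the treated groups was wide. Such a separation, in either direction, was seen for 15.6% of all genes tested with Lys05, 15.4% with BAQ12, 28.9% with BAQ13 and 25.8% with BAQ12O. The log2 fold changes were -0.96 with BAQ12, -0.57 with BAQ13, -0.76 with BAQ12O and -0.30 with Lys05, with adjusted p-values of 0.28, 0.40, 0.37 and 0.999 by limma. Without replicate 3 of BAQ12, the sample with 65.3, PSAT1 was called lower with BAQ13 (adjusted p = 0.011) and with BAQ12O (adjusted p = 0.0022), and the log2 fold change with BAQ12 was -0.35. Without replicate 1 of BAQ13, the log2 fold change with BAQ13 was -0.31 (adjusted p = 0.78). PHGDH (ENSG00000092621; chromosome 1, 119648411 to 119744226), which catalyses the first step of the same pathway, ranged from 18.4 to 41.5 normalised counts over the 15 libraries with all groups overlapping, and its 4 log2 fold changes lay between -0.19 and 0.18.

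CHAC1 (ENSG00000128965; chromosome 15, 40952962 to 40956519), a cyclotransferase that degrades glutathione and a well known ATF4 target, had the widest range of fold changes among the 9 tested genes. Its normalised counts were 24.1, 21.2 and 27.5 with vehicle, 20.2, 14.6 and 24.3 with Lys05, and 19.6, 22.8 and 26.8 with BAQ13. With BAQ12 they were 6.42, 13.6 and 7.54, and with BAQ12O 16.2, 17.2 and 4.14. The BAQ12 and BAQ12O libraries were all below the vehicle range, and the BAQ13 libraries overlapped it. Of all genes tested, 15.4% were apart from vehicle in either direction with BAQ12 and 25.8% with BAQ12O. The log2 fold change was -1.37 with BAQ12 (95% interval -2.20 to -0.53, adjusted p = 0.15) and -1.10 with BAQ12O (95% interval -1.94 to -0.27, adjusted p = 0.22 by limma), with no call at 3 to 32 reads per library. Replicate 3 of BAQ12O held 3 reads, which is the detection floor used here, and without this library the log2 fold change with BAQ12O was -0.51 (adjusted p = 0.60). With BAQ13 it was -0.07, with an interval from -0.91 to 0.76. The 5 genes whose 4 fold changes were most like those of CHAC1, by root mean square difference on the log2 scale, were RP11-557H15.4 (0.22), PAOX (0.23), E2F2 (0.24), SLC7A11 (0.27) and ZSCAN16 (0.27). SLC7A11 is the cystine transporter that supplies glutathione synthesis, and its log2 fold changes were -0.64 with Lys05, -0.95 with BAQ12, -0.13 with BAQ13 and -1.13 with BAQ12O. None of these passed with all 15 libraries. With BAQ12O the adjusted p was 0.11 by limma, on 12.5 ± 4.87 against 27.6 ± 4.78 normalised counts with vehicle (SD, n = 3).

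**Figure D2:**
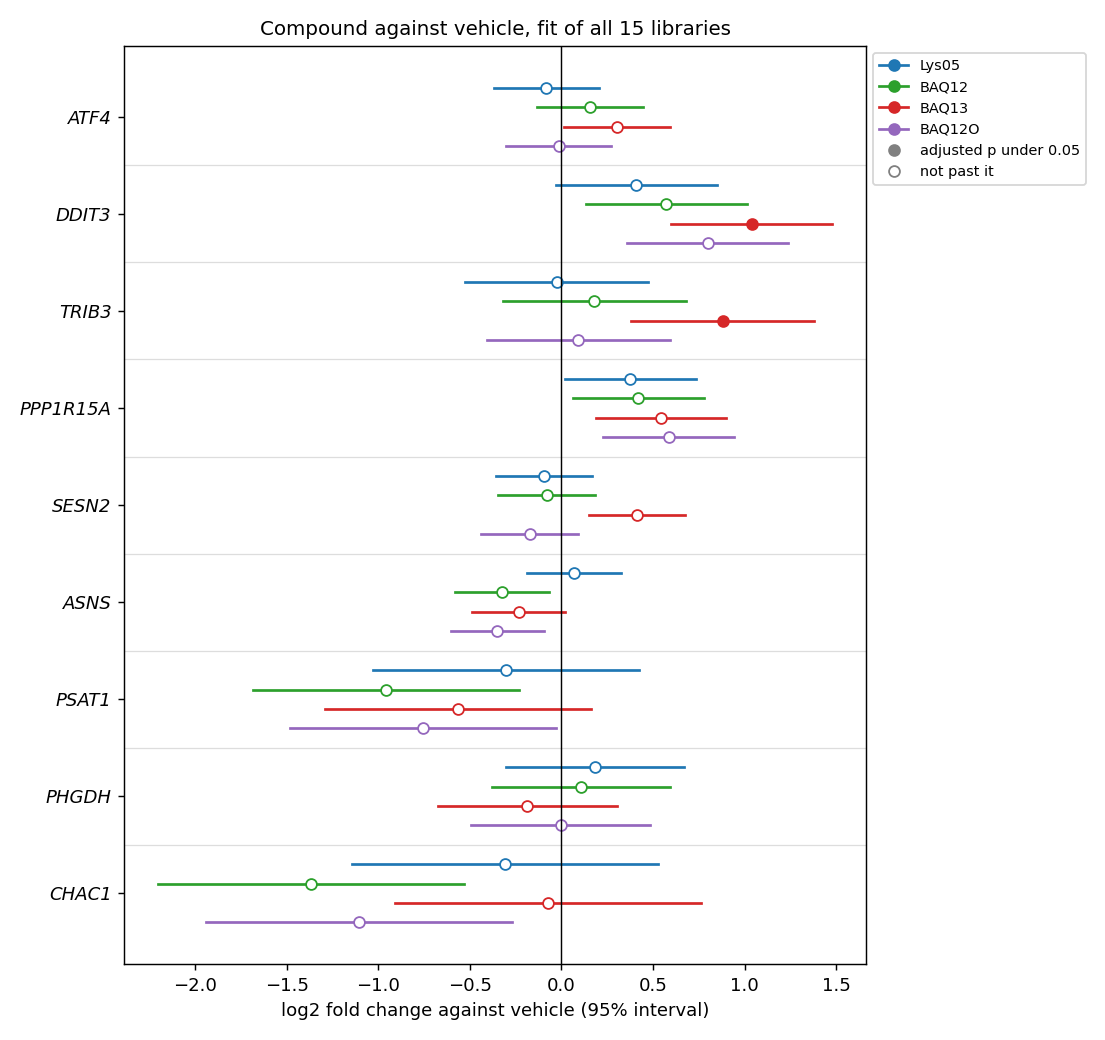
Log2 fold change against vehicle (x axis) of the 9 tested genes (y axis) for each compound, with 95% intervals from the limma fit of all 15 libraries and filled symbols for an adjusted p under 0.05. The filled symbols are DDIT3 (1.04) and TRIB3 (0.88) with BAQ13, and PSAT1 and CHAC1 have the widest intervals.

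The plot of fold changes puts the 4 comparisons with vehicle side by side, and these share the 3 vehicle libraries. With BAQ13, 2 of the 9 tested genes passed an adjusted p under 0.05, both higher, where 5.77% of all genes tested passed and 3.58% passed as higher. No gene of the 9 passed by limma with Lys05 (0.238% of all genes tested passed), BAQ12 (0.981%) or BAQ12O (1.48%). At an unadjusted p under 0.05 there was 1 gene with Lys05, where 4.98% of all genes tested passed, and there were 5 genes with BAQ12 (11.8%), 5 with BAQ13 (19.4%) and 5 with BAQ12O (12.8%). With DESeq2 and edgeR on the recovered reads Lys05, BAQ12 and BAQ12O also had 0 calls. At an unadjusted p under 0.05 DESeq2 gave 0, 4 and 4 genes for these 3 compounds, where 2.58%, 7.71% and 8.68% of all genes passed. At the same threshold edgeR gave 1, 5 and 5 genes, where 4.93%, 11.2% and 12.4% passed. The median log2 fold change of the 9 genes was -0.03 with Lys05, 0.11 with BAQ12, 0.30 with BAQ13 and -0.02 with BAQ12O, where the median of all genes tested was 0.00 in each. Neighbouring groups in the order of mean levels did not differ at an adjusted p under 0.05 for any of the 9 genes. By another rule, a fold change of at least 2 with an unadjusted p of at most 0.05, DDIT3 passed with BAQ13 (2.16% of all genes tested passed) and CHAC1 passed with BAQ12 (1.03%) and BAQ12O (0.953%). By the same rule CHAC1 passed in BAQ12 against Lys05 (0.495%), BAQ13 against BAQ12 (0.619%) and BAQ12O against BAQ13 (0.896%), and no gene of the 9 did in BAQ13 against Lys05 (1.29%). Without replicate 3 of BAQ12O, CHAC1 was at a log2 difference of -0.51 from vehicle with BAQ12O and at -0.44 from BAQ13, both short of this fold.

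**Figure D3:**
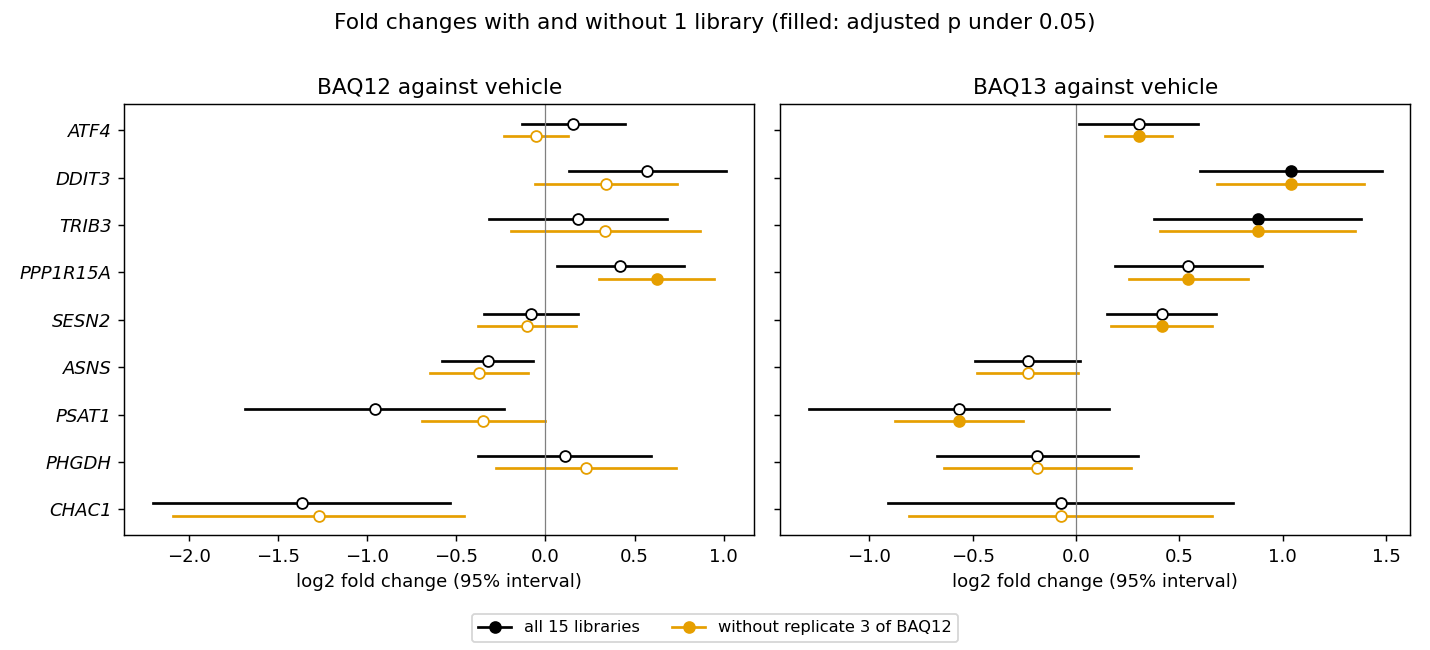
Log2 fold changes against vehicle (x axis, with 95% intervals) of the 9 tested genes with BAQ12 and with BAQ13, from all 15 libraries (black) and without replicate 3 of BAQ12 (orange), with filled symbols for an adjusted p under 0.05. With BAQ13 the point estimates are the same and the intervals narrow, and the number of filled symbols goes from 2 to 6.

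As the plot with and without replicate 3 of BAQ12 shows, more genes passed without this library. With BAQ13, 6 of the 9 genes then passed (DDIT3, TRIB3, SESN2, PPP1R15A and ATF4 higher, PSAT1 lower), where 13.7% of all genes tested passed. With BAQ12O 3 genes passed (DDIT3 and PPP1R15A higher, PSAT1 lower), where 4.99% of all genes did, and with BAQ12 PPP1R15A passed, where 1.31% did. With Lys05 limma called 0 of the 9 genes, where 0.486% of all genes passed, and 2 had an unadjusted p under 0.05, where 7.62% of all genes did.

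The compounds were then compared directly in their 6 pairs, at the same dose and time. SESN2 differed between BAQ13 and both Lys05 and BAQ12O. Against Lys05, 1 of the 9 genes passed, where 2.66% of all genes tested passed and 1.88% passed as higher, namely SESN2 at 0.51 higher with BAQ13 on the log2 scale (95% interval 0.24 to 0.77, adjusted p = 0.036 by limma). TRIB3 was at 0.90 (95% interval 0.41 to 1.40, adjusted p = 0.050), just short of it. Against BAQ13, BAQ12O had SESN2 lower by 0.59 (log2 difference -0.59, 95% interval -0.85 to -0.32, adjusted p = 0.022 by limma), the 1 gene of the 9 that passed, where 1.39% of all genes tested did and 0.924% did as lower. When p-values were adjusted over genes and the 6 pairs together, the second difference passed (adjusted p = 0.033) and the first did not (adjusted p = 0.084). Without replicate 3 of BAQ12, 4 genes were higher with BAQ13 than with Lys05 (ATF4, DDIT3, TRIB3 and SESN2, where 7.76% of all genes tested passed), and 2 were lower with BAQ12O than with BAQ13 (ATF4 and SESN2, where 3.69% passed).

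BAQ13 and BAQ12 both carry a long hydrophobic tail, and none of the 9 genes passed between them by limma, where 0.562% of all genes tested passed. CHAC1 was 1.29 higher with BAQ13 than with BAQ12 (95% interval 0.46 to 2.13, adjusted p = 0.24), TRIB3 0.70 higher (0.20 to 1.20, adjusted p = 0.35), SESN2 0.50 higher (0.23 to 0.76, adjusted p = 0.12) and DDIT3 0.47 higher (0.03 to 0.91, adjusted p = 0.57). These 4 genes had an unadjusted p under 0.05, where 8.27% of all genes tested did. Leaving out replicate 1 of BAQ13 took the DDIT3 difference to 0.22. Without replicate 3 of BAQ12, ATF4 (0.36, adjusted p = 0.024), DDIT3 (0.70, adjusted p = 0.044) and SESN2 (0.52, adjusted p = 0.032) were called higher with BAQ13 than with BAQ12, where 3.16% of all genes tested passed.

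In the other 3 pairs none of the 9 genes passed by limma, where the share of all genes tested that passed was 0.162% for BAQ12 against Lys05, 0.248% for BAQ12O against Lys05 and 0.229% for BAQ12O against BAQ12. At an unadjusted p under 0.05 there were 2, 1 and 0 genes, where 7.17%, 7.36% and 8.38% of all genes tested passed, and DESeq2 and edgeR gave no call in any of these pairs or between BAQ13 and BAQ12. ASNS was 0.39 lower with BAQ12 (log2 difference -0.39, 95% interval -0.65 to -0.14, adjusted p = 0.42) and 0.42 lower with BAQ12O (log2 difference -0.42, 95% interval -0.67 to -0.16, adjusted p = 0.30) than with Lys05. Between BAQ12O and BAQ12, the 95% intervals were widest for CHAC1 (-0.57 to 1.10) and PSAT1 (-0.53 to 0.93) and narrowest for ASNS (-0.28 to 0.23). A p-value short of the threshold does not show that these compounds act alike.

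**Figure D4:**
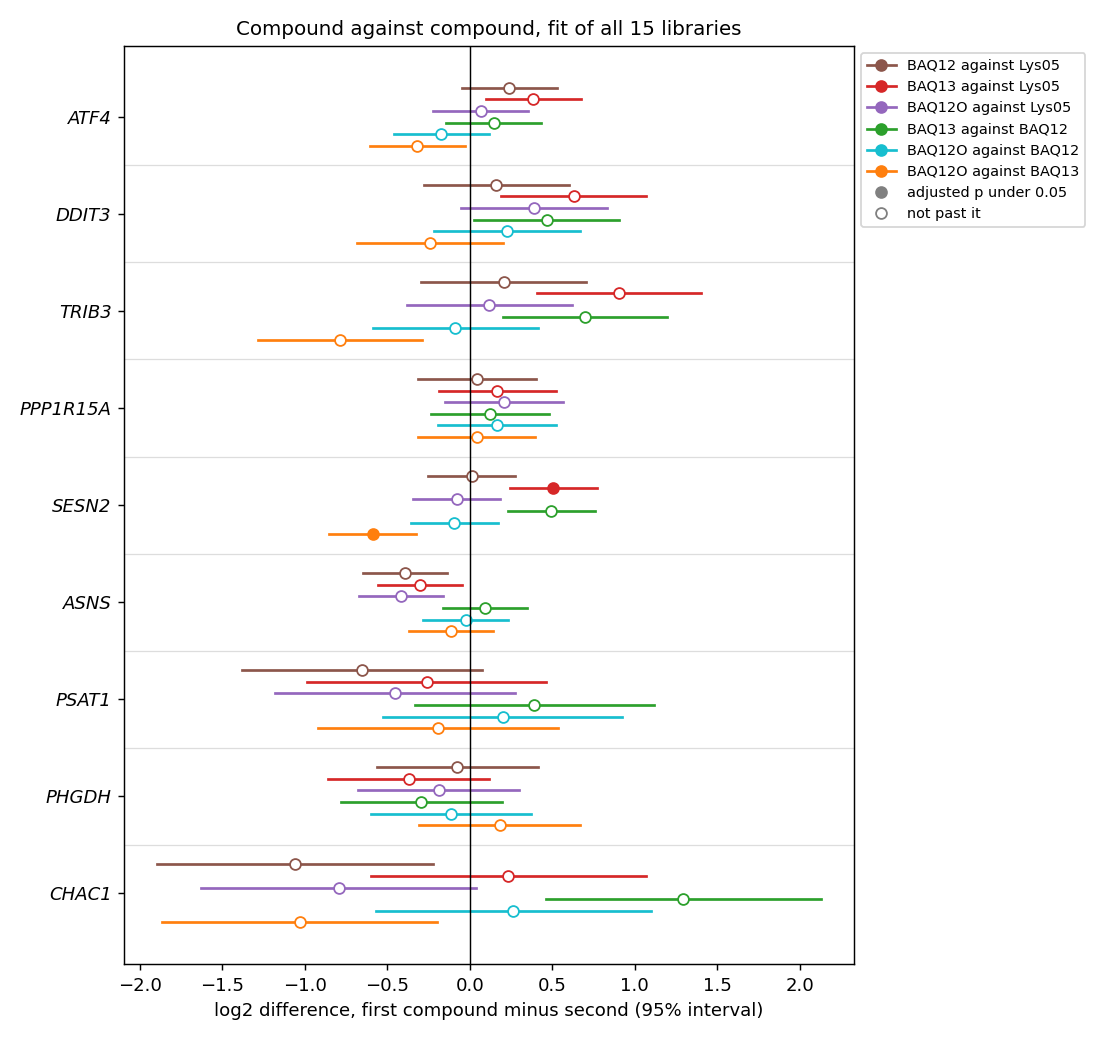
Log2 difference between 2 compounds (x axis, first named minus second, with 95% intervals) of the 9 tested genes (y axis) in the 6 pairs, from the limma fit of all 15 libraries, with filled symbols for an adjusted p under 0.05. The filled symbols are SESN2 in BAQ13 against Lys05 (0.51) and in BAQ12O against BAQ13 (-0.59), and the PPP1R15A intervals of all 6 pairs cross 0.

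In the plot of the 6 pairs, the differences that involve BAQ13 are the ones farthest from 0 for TRIB3 and SESN2. Genes elsewhere in the pathway were read from further lists, whose counts of calls stand beside the shares of all genes tested that passed against vehicle, 0.238% with Lys05, 0.981% with BAQ12, 5.77% with BAQ13 and 1.48% with BAQ12O. The sensors and the machinery of eIF2 (4 eIF2 kinases, the subunits of eIF2 and eIF2B, and regulators, 18 genes, all tested) had no call by limma with any compound, and median log2 fold changes from -0.10 to 0.01. Among the kinases, EIF2AK4 (GCN2, the sensor of uncharged tRNA) was at a log2 fold change of 0.19 with BAQ13 (adjusted p = 0.34), and EIF2AK3 (PERK, the sensor in the endoplasmic reticulum) was at 0.60 (adjusted p = 0.33) on 11.9 ± 1.99 (SD, n = 3) against 7.75 ± 2.88 (SD, n = 3) normalised counts. The other branches of the unfolded protein response, driven by ATF6 and IRE1, had no call among 14 genes with any compound, and HSPA5, the main chaperone of the endoplasmic reticulum, was at -0.04 with BAQ13 (adjusted p = 0.77). When replicate 3 of BAQ12 was left out, 1 gene of each of these lists was lower with BAQ13, where 13.7% of all genes tested passed. These were EIF2S2 (a subunit of eIF2) and MANF (a secreted protein of the endoplasmic reticulum).

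Of 18 further ATF4 targets in amino acid transport and metabolism, 16 were tested. SLC7A5, the light chain of the leucine transporter, fell with 3 compounds and was the 1 call of this list in each. It was at 219 ± 1.86 normalised counts (SD, n = 3) with vehicle, 138.9 ± 24.6 with BAQ12, 128.6 ± 9.39 with BAQ13 and 125.9 ± 16.1 with BAQ12O. The log2 fold changes were -0.67 (adjusted p = 0.013), -0.77 (adjusted p = 0.0011) and -0.80 (adjusted p = 0.0026 by limma). The median of the list was -0.25 with BAQ12, 0.01 with BAQ13, -0.19 with BAQ12O and 0.00 with Lys05. Leaving out replicate 3 of BAQ12, 4 genes of the list were lower with BAQ13 (SLC7A5, SLC7A1, MTHFD2 and ALDH18A1), where 13.7% of all genes tested passed. In the same fit 3 genes were lower with BAQ12O (SLC7A5, SLC7A11 and MTHFD2), where 4.99% passed, and no gene of the list was higher with either.

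Of 22 ATF4 targets that encode regulators and secreted factors, 16 were tested, and all calls from the 15 libraries were increases. GDF15, a secreted stress cytokine, rose with each compound, from 37.0 ± 6.24 normalised counts (SD, n = 3) with vehicle to 65.1 ± 6.59 with Lys05, 63.3 ± 7.68 with BAQ12, 111 ± 11.3 with BAQ13 and 82.8 ± 10.1 with BAQ12O. Its log2 fold changes were 0.81 (adjusted p = 0.037), 0.77 (adjusted p = 0.022), 1.57 (adjusted p = 4.2e-06) and 1.15 (adjusted p = 0.00078 by limma), in that order. SQSTM1, the autophagy receptor p62, rose with BAQ12 (0.62), BAQ13 (1.21) and BAQ12O (0.73). CEBPB, a partner of ATF4 on composite sites, and GADD45A, a growth arrest gene, rose with BAQ13 by 0.68 (adjusted p = 0.00032) and 0.41 (adjusted p = 0.036) on the log2 scale. With replicate 3 of BAQ12 left out, 6 genes of the list were higher with BAQ13 (DDIT4 and MAP1LC3B in addition), where 13.7% of all genes tested passed. With BAQ12O 3 were then higher (CEBPB in addition) and ATF5 was lower, where 4.99% passed. GDF15, SQSTM1 and GADD45A are also known to answer to regulators other than ATF4.

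Cytosolic tRNA synthetases charge tRNAs with amino acids, and several are known ATF4 targets. With BAQ13, AARS rose by 0.68 (916.5 ± 4.89 against 570.8 ± 18.0 normalised counts, SD, n = 3, adjusted p = 1.0e-05) and WARS by 0.74 (adjusted p = 0.0056 by limma), and 2 of 12 were called, where 5.77% of all genes tested were. With BAQ12O, TARS fell by 0.32 on the log2 scale (adjusted p = 0.042) and was the 1 call of 12, where 1.48% of all genes tested were called. NARS and SARS passed as higher with BAQ13 when replicate 3 of BAQ12 was left out, where 13.7% of all genes tested passed. The median of the 12 genes was 0.00 with BAQ13 and -0.10 with BAQ12O. Among immediate early genes, 10 of 12 were tested, and KLF6 (0.60, adjusted p = 0.00023) and IER3 (0.99, adjusted p = 0.0059) rose with BAQ13. ZFP36 was called as well (adjusted p = 0.046), on 7 to 12 reads against 0 to 4 with vehicle. With BAQ12O, IER3 and ZFP36 passed as higher when replicate 3 of BAQ12 was left out, where 4.99% of all genes tested passed. They did not pass with all 15 libraries.

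**Figure D5:**
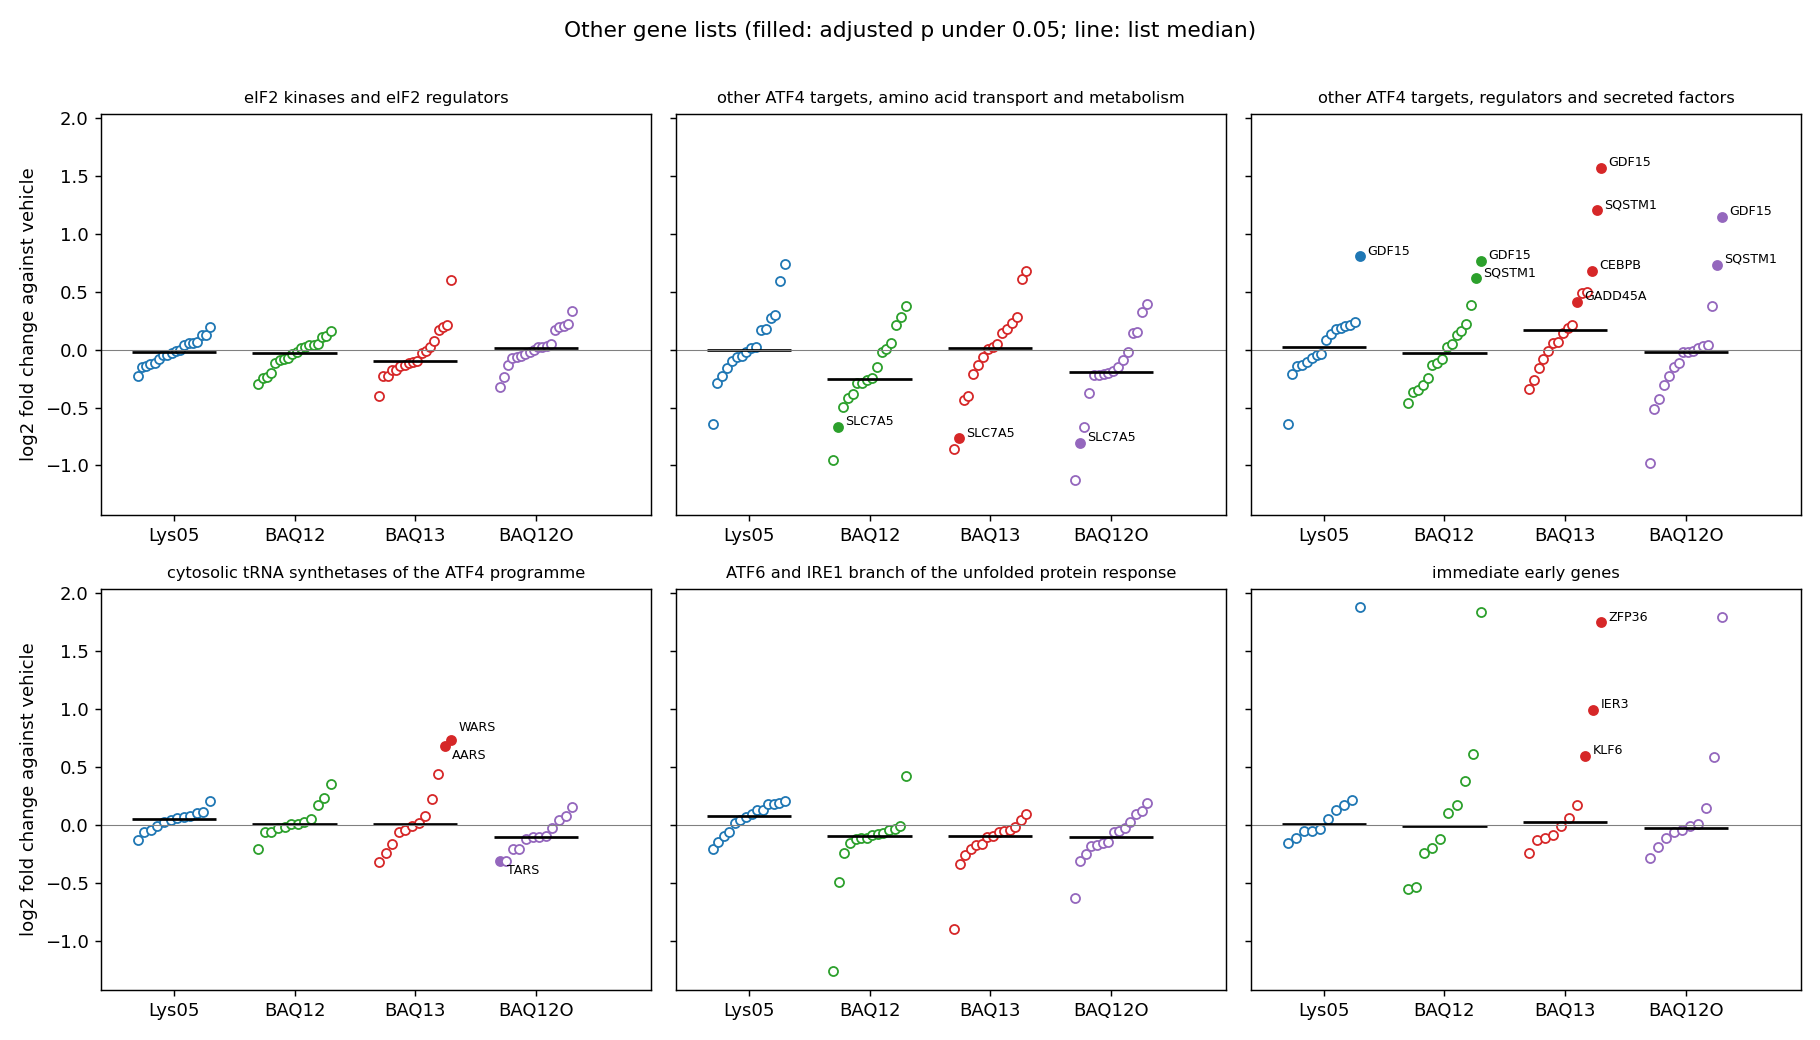
Log2 fold changes against vehicle (y axis) of the tested genes of 6 further lists, by compound (x axis), sorted by value within a compound, with filled and named symbols for an adjusted p under 0.05 and bars at the median. GDF15 is filled with all 4 compounds, SLC7A5 is filled below 0 with BAQ12, BAQ13 and BAQ12O, and the lists of eIF2 genes and of the ATF6 and IRE1 branch have no filled symbol.

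The plot of the further lists shows each tested gene beside the median of its list, and the medians stay between -0.25 and 0.17 for all lists and compounds.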

How the data were processed

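The authors deposited 1 normalised read count (signal) per gene and library, obtained by scaling reads with library size factors. Per the labels, STAR, HTSeq, DESeq2 and GRCh38 (hg38) were named in the submitters' processing notes, and versions and the annotation release are not given in the sources used here. Sources differ on the kit, which is for 3′ ends in the labels and stranded and paired-end in the study's methods. Whole reads were recovered in 100% of values (tolerance 0.02), with 0 reads on 92 spike-in identifiers.

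limma 3.58.1 (R 4.3.3) was run on log2(value + 1) with all 15 libraries in 1 model, a trended prior variance and no covariates. Fold changes on this scale understate the change of weakly expressed genes. filterByExpr (minimum count 10, minimum total 15) kept 10495 genes, and p-values were adjusted by Benjamini-Hochberg over them, with a call at 0.05. Alternatives were DESeq2 1.42.0 and edgeR 4.0.16 on the recovered reads, other pseudocounts, filters, TMM factors, thresholds and sample sets. The steps were also run on simulated libraries, in which each gene had the same dispersion in every library. A library that stands apart, such as replicate 3 of BAQ12, was therefore not covered by this run. A count of 3 reads was taken as the floor, which covers counting error only. Coordinates are from GENCODE release 29, which holds 56531 of the 60107 identifiers.

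The genes, lists and tests were chosen with earlier results of these data known. Named are the 10 genes, genes of the other lists with an adjusted p under 0.05 against vehicle (at most 6 per list), and the 5 genes most like the gene with the widest range. MARS, EIF2AK3, EIF2AK4, HSPA5 and genes called without replicate 3 of BAQ12 were named after their values were seen.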

Additional observations from a re-analysis of the deposited data

Results flagged for a closer look

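SESN2 differed between compounds given at the same dose for the same time, by the direct test of the difference. It was higher with BAQ13 than with Lys05, with a log2 difference of 0.51 (adjusted p = 0.036 by limma, all 3 BAQ13 libraries above all 3 Lys05 libraries). This call did not survive 7 of the 15 omissions of a single library, those of vehicle replicate 1 or 2, Lys05 replicate 1 or 2, BAQ13 replicate 2 or 3, or BAQ12O replicate 1 (adjusted p 0.050 to 0.19). It was lower with BAQ12O than with BAQ13, with a log2 difference of -0.59 (adjusted p = 0.022, all 3 BAQ12O libraries below all 3 BAQ13 libraries). This call did not survive 4 of the 15 omissions, those of BAQ13 replicate 2 or 3 or BAQ12O replicate 1 or 3 (adjusted p 0.093 to 0.14). Groups did not overlap in this way for 23.8% of all genes tested in the first pair and 18.7% in the second.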

How the results depend on the processing

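No called difference of the 9 pathway genes changed sign under the alternatives. DDIT3 with BAQ13 passed in all 10 other settings and all 15 fits that left out a library, TRIB3 in 7 and 10. Fitting only the 6 libraries compared called 115 genes with Lys05, 31 with BAQ12, 947 with BAQ13 and 871 with BAQ12O against vehicle, of which 1, 0, 5 and 4 were among the 9 pathway genes. The 5 with BAQ13 were higher, and with BAQ12O 2 were higher and 2 lower. PSAT1 was called lower in this limma fit with Lys05 (adjusted p = 0.049) and with BAQ12O (adjusted p = 1.6e-07). In the pairs it called 0 genes for BAQ12 against Lys05, 389 for BAQ13 against Lys05 and 223 for BAQ12O against Lys05. It called 9 for BAQ13 against BAQ12 and 8 for BAQ12O against BAQ12. Among the 389 and the 223 genes were 3 and 2 pathway genes, with 10495 genes tested in each pair. The paper's threshold (fold change of 2, unadjusted p of 0.05) was applied here to the limma fit of 10495 genes. The paper used a t test and another set of tested genes, so its counts are not comparable. Here this threshold called 57 genes with Lys05, 227 with BAQ13 and 100 with BAQ12O against vehicle, and 52, 135, 63, 50 and 94 genes for BAQ12, BAQ13 and BAQ12O against Lys05 and BAQ12O against BAQ12 and BAQ13. By it 1 pathway gene passed with each of BAQ12 (CHAC1), BAQ13 (DDIT3) and BAQ12O (CHAC1) against vehicle and in BAQ12 against Lys05 and BAQ13 against BAQ12 (CHAC1), 1 in BAQ12O against BAQ13 (CHAC1 in place of SESN2), and 0 in BAQ13 against Lys05. For BAQ12 against Lys05, DESeq2 called 26 genes, no filter 11 and adjustment over the 6 pairs, added after the data were seen, 26. That adjustment gave 180 genes and 0 pathway genes for BAQ13 against Lys05. In that pair edgeR called 322 genes, a pseudocount of 5 called 282 and at least 10 reads in every library 290 of 8320 tested. Each of these held 2 pathway genes (SESN2 and TRIB3). No filter called 214 of 22539 genes tested and 0 pathway genes. Against vehicle, no filter left 1 pathway gene with BAQ13, where 470 of the 22539 genes tested passed. In the paired fit with the replicate number as a block, 1 pathway gene passed with BAQ13 against vehicle (TRIB3 had adjusted p = 0.056) and 0 against Lys05 (SESN2 had adjusted p = 0.068), and 21, 77, 512 and 119 genes passed against vehicle. Treated libraries correlated with the same-numbered vehicle library in their deviations from the group means at -0.13 to 0.11. Treated libraries were not compared with each other in this way, and whether same-numbered libraries share a culture or batch was not tested.

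Leaving out each library gave 19 to 51 genes with Lys05, 56 to 137 with BAQ12, 320 to 1441 with BAQ13 and 75 to 524 with BAQ12O against vehicle, and 0 to 0, 0 to 1, 1 to 6 and 0 to 3 pathway genes. For the pairs it gave 8 to 26 genes (BAQ12 against Lys05), 154 to 814 (BAQ13 against Lys05), 20 to 83 (BAQ12O against Lys05), 32 to 332 (BAQ13 against BAQ12), 14 to 54 (BAQ12O against BAQ12) and 72 to 387 (BAQ12O against BAQ13), with 0 to 0, 0 to 4, 0 to 0, 0 to 3, 0 to 0 and 0 to 2 pathway genes. In each comparison the highest number of genes came without replicate 3 of BAQ12; the cause was not tested. Low read numbers limit ATF3, CHAC1, ZFP36 and EIF2AK3.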
